A study of Mus musculus with 16 samples.

Results

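The 8 arrays described here each set RNA of Erbb2-transfected NIH3T3 cells treated with 10 µM azacytidine against RNA of the same transfected cells left untreated. They were taken by their titles, replicates 1 to 8 of that dose, and are 8 of the 16 2-dye arrays of the study. The treated RNA carried the dye Cy5 on arrays 1 to 4 and Cy3 on arrays 5 to 8, by the dye label of the first channel. The other arrays measured Erbb2-transfected cells at 5 µM (4 arrays) and untransfected NIH3T3 cells at 10 µM (4 arrays), each against untreated cells of its own line. All groups are thus ratios within 1 line, and the 5 µM and 10 µM arrays share the untreated Erbb2-transfected cells as their reference. No source used here gives the treatment time, the promoter that drives Erbb2 or whether the transfected line is a single clone.

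Azacytidine is an analogue of cytidine that cells build into RNA and, after conversion, into DNA. In DNA it traps the methyltransferases that copy cytosine methylation at CpG sites after replication, so methylation is lost as cells divide, and genes held silent by methylation can become active. In RNA it disturbs processing and translation. NIH3T3 is an established line of mouse embryonic fibroblasts, and Erbb2 is a receptor tyrosine kinase that transforms such cells when it is overexpressed. The design asks what the drug does to the RNA of the transformed cells, with the untransfected line as a control.

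An array gave between 16153 and 18505 ratios from 20355 cDNA probes, and 12420 features with enough values were compared, 7832 of them genes with a symbol. The values are log2 ratios, and ± is the standard error (SE) of the value that limma fitted, with n the number of arrays. The interquartile range of the ratios ran from 0.75 to 1.36 and was widest on arrays 3, 5 and 6. Signal intensities are not part of the values, so neither the level of a gene nor its distance from background is known, and the fibroblast identity of the cells could not be checked by level. Erbb2 and Myod1 had no probe under those symbols, so the transgene could not be checked. A ratio from bulk RNA cannot tell a change in every cell from a change in the share of cells that express a gene.

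Every direction below rests on a reading of the ratios that the sources do not state. They were read as Cy5 over Cy3, and arrays 5 to 8 had their sign turned, so that a value above 0 means more RNA in treated cells. On arrays 1 to 4 this reading and a ratio of treated over untreated are the same thing. Of the 8147 features with a value on all 8 arrays, 318 had a single sign on all 8 after turning (106 higher, 212 lower), against 162 with the values as deposited. Over all probes the arrays barely correlated. The deposited ratios had a mean Pearson correlation of 0.026 over 12 pairs of arrays of the same dye and 0.004 over 16 pairs of opposite dye. The mean rank correlations were 0.061 and -0.003. Correlation over all probes of these 8 arrays therefore does not decide the reading. The mean Pearson correlations at 5 µM were 0.052 for the same dye and -0.003 for opposite dyes. In untransfected cells the 2 pairs with the same first-channel dye label had a mean of 0.109. The 4 pairs of opposite label had -0.053, the highest at -0.012, so there the deposited signs went with the label. The dye labels of that group are doubtful, as given below. Were the ratios Cy3 over Cy5, every sign below would turn. With no array of any of the 3 groups turned, as for ratios already of treated over untreated RNA, 2 features passed in place of 157. The labels do not say whether the arrays came from separate cultures or whether arrays of opposite dye repeat the same extracts, so p-values measure the spread between arrays, which may be technical.

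In limma, 157 of the 12420 features passed at a Benjamini-Hochberg adjusted p under 0.05, or 1.26% of those tested, 50 of them higher (0.403%) and 107 lower (0.862%). Among the genes with a symbol, 25 were higher and 56 lower. The higher genes included Cd5, Hoxb1, Apaf1, Cebpd and the lysosomal genes Psap, Grn and Npc2. The lower genes included 18 cytosolic ribosomal protein genes, the elongation factor genes Eef2 and Eef1b2, 4 enzymes of glycolysis and glycogen metabolism, and the aldo-keto reductase gene Akr1c18. Sizes of the 157 values ran from 0.41 to 3.29 on the log2 scale, with a median of 0.68. Over all 12420 features the median was -0.00 and 49.4% lay above 0. Of the 157 features, 144 had a single sign on every array with a value, and all 157 had the same sign in the mean of either dye arrangement.

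The closest the design comes to a repeat is the pair of dye arrangements, 4 arrays each. Fitted on either set of 4 arrays alone, 0 features passed in limma. Before adjustment 830 and 676 had a p under 0.05, and the smallest adjusted p-values were 0.0975 and 0.298. Of the 157 features, 130 had an unadjusted p under 0.05 on the Cy5 arrays and 99 on the Cy3 arrays, but both sets had helped to choose them. A fit on the 8 arrays without the other groups left 22 features, 15 higher and 7 lower. Of these, 21 were among the 157, and the genes with a symbol were Apaf1, Cd5, Hoxb1, Hyi, Cebpd, Akr1c18, App and Psap. Passing also depended on how closely arrays repeated a value. The median SE was 0.11 for the 157 features and 0.26 for the rest, and 355 features with a value of more than 2-fold did not pass, against 24 that did. At the edge of the threshold, the unnamed probe13408 had an adjusted p of 0.0494 and H2az1 one of 0.0523.

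**Figure D1:**
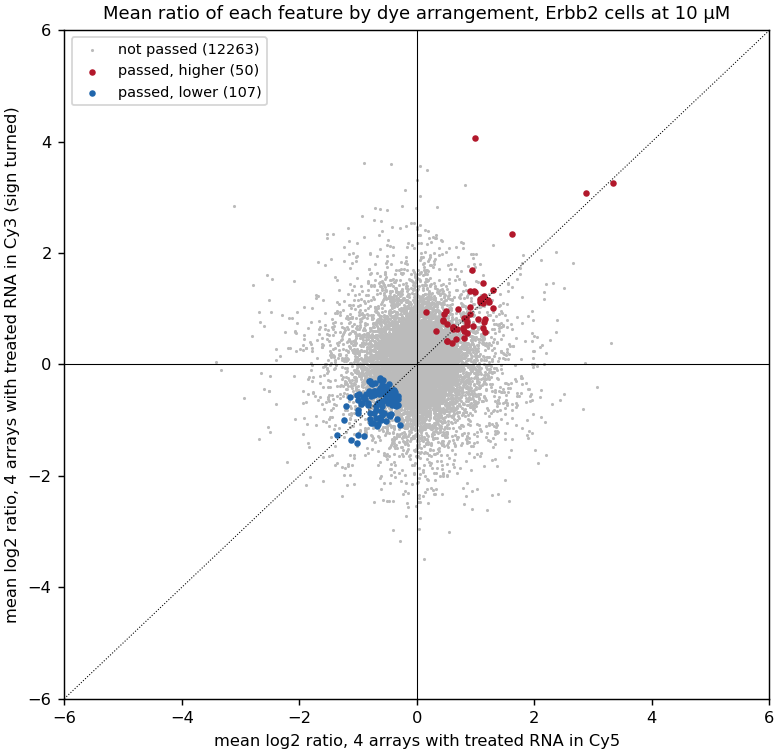
Mean log2 ratio of each of the 12420 features on the 4 arrays with the treated RNA in Cy5 (horizontal axis) and on the 4 arrays with it in Cy3, sign turned (vertical axis). Red points are the 50 features that passed as higher, blue points the 107 that passed as lower and grey points the rest, and the dotted line marks equal means. Every coloured point lies in the quadrant where both means have its sign, which is part of how such features pass.

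To show what the start sites of the leading genes look like to a drug that acts on CpG methylation, the 250 bases upstream of 4 higher genes are printed here. They were taken from the RefSeq promoter windows of the build GRCm38.p6, 5′ to 3′ on the strand of the gene, with each CG dinucleotide in capitals. They are Cd5 at chr19:10738975-10739224 on the minus strand, Hoxb1 at chr11:96365508-96365757 on the plus strand, Apaf1 at chr10:91082744-91082993 on the minus strand and Psap at chr10:60277378-60277627 on the plus strand.
Cd5: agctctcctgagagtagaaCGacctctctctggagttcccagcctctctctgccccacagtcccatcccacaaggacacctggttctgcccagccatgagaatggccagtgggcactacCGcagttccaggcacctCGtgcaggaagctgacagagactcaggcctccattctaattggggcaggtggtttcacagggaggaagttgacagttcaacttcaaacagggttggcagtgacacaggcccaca
Hoxb1: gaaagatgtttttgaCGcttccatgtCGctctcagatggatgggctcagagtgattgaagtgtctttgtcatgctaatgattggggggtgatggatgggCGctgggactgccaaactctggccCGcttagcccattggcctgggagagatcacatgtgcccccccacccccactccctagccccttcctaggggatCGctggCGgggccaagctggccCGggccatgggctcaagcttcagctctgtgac
Apaf1: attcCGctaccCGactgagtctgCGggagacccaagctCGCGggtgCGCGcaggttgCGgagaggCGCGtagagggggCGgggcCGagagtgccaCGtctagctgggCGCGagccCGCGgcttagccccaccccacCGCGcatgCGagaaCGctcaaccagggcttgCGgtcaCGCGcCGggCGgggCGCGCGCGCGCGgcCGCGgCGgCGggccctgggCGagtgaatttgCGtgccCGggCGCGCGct
Psap: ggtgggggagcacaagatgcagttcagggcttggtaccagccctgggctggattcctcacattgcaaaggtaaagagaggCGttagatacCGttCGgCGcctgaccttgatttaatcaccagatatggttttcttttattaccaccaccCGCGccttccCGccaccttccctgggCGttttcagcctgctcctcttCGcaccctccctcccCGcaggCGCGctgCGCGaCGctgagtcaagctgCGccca
The upstream stretch of Cd5 holds 3 CG dinucleotides and that of Hoxb1 holds 7, whereas that of Psap holds 16 and that of Apaf1 holds 42. The windows with 50 further bases downstream of the start gave an observed over expected CpG ratio of 0.126 for Cd5, 0.380 for Hoxb1, 0.799 for Psap and 1.12 for Apaf1. Psap had 2 windows, of which the first listed was used. The genes with the most repeatable rises thus had start sites on both sides of 0.6, a value often used to mark CpG islands. Methylation itself was not measured in these samples.

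Start sites of the genes with a symbol that passed were described the same way, where a window was held. A window was found for 20 of the 25 higher genes, 45 of the 56 lower genes and 6321 of the 7832 genes tested. The median observed over expected CpG ratio was 0.707 in the higher genes, 0.857 in the lower genes and 0.744 in all genes tested. A ratio over 0.6 was found for 60% of the higher genes, 73.3% of the lower genes and 67.2% of all genes tested. The windows of the higher genes were thus no richer in CpG by these counts than those of the lower genes. No test was made of these shares.

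Cd5, a receptor of the surface of T cells and some B cells, was among the most repeatable of the higher genes. Its log2 ratio ran from 1.02 to 1.27 over the 4 arrays where Cy5 marked the treated RNA (Cy5 arrays) and from 1.25 to 1.65 over the 4 where Cy3 did (Cy3 arrays). Both sets of arrays lay far above 0 and met at their edges, with the Cy3 arrays the higher ones. The fitted value was 1.29 ± 0.10 (n = 8), or 2.45-fold, with an adjusted p of 7.78e-06 in limma. Cd5 was the 1 of 20 measured lymphocyte and leukocyte genes that passed (5%, against 0.403% of all features as higher). A single call is no result about the list. The lists were chosen with earlier results of these data known, so shares of list members here and below are not independent of the values. The T cell receptor chain gene Cd3d had -0.99 ± 0.40 (n = 6), the lymphocyte surface gene Cd52 had -0.73 ± 0.30 and the macrophage gene Cd68 had -0.59 ± 0.54 (n = 6), and none of these passed. The list had a median of -0.12, and 30% of its members lay above 0.

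Hoxb1, a homeobox gene that patterns the embryonic hindbrain, ran from 1.02 to 1.53 over the Cy5 arrays and from 0.91 to 1.23 over the Cy3 arrays. The ranges overlapped and no array came near 0. Its fitted value was 1.18 ± 0.11 (n = 8), with an adjusted p of 2.77e-05 in limma. It was the 1 of 18 measured homeobox genes that passed (5.56%, against 0.403% of all features as higher), a single call and no result about the list. The list had a median of 0.09 with 50% of members above 0. Its relative Hoxa7 had 0.55 ± 0.51 (n = 7) and did not pass.

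Apaf1, the scaffold on which cytochrome c assembles the caspase-activating apoptosome, ran from 1.24 to 1.40 over the Cy5 arrays and from 0.79 to 1.22 over the Cy3 arrays. These ranges did not overlap, and both lay above 0. The fitted value was 1.15 ± 0.10 (n = 8), with an adjusted p of 1.59e-05 in limma. Apaf1 was the 1 of 26 measured apoptosis genes that passed (3.85%, against 0.403% of all features as higher), where the list had a median of 0.09. This single call is no result about the list. Of its members 53.8% lay above 0 and 46.2% below, down to -0.84, and the list median on single arrays ran from -0.21 to 0.33. The inflammatory caspase gene Casp4 (0.58 ± 0.16, adjusted p of 0.108 in limma) and the death receptor gene Fas (0.73 ± 0.71) did not pass. Neither did any of the 14 measured p53 target genes, whose median was 0.19. That median was -0.01 on the Cy5 arrays and 0.65 on the Cy3 arrays, and single arrays ran from -0.58 to 0.49.

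The cell cycle inhibitor gene Cdkn1a, a p53 target, had values that differed between the dyes. On the 4 Cy5 arrays it lay between -2.77 and -2.55, and on the 2 Cy3 arrays with a value it had -0.67 and 2.56. Its values therefore repeated closely within one dye arrangement and not across the dyes. The fitted value was -1.24 ± 0.54 (n = 6), with an adjusted p of 0.437 in limma. Leaving out array 8, which held the value of 2.56, gave -2.11 with an adjusted p of 0.0298.

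Further higher genes with a single sign on every array covered several functions. The transcription factor gene Cebpd, active early in fat cell differentiation and in acute inflammation, ran from 0.88 to 1.44 with a median of 1.20, and its ranges in the dye arrangements overlapped. Zfp36, whose product binds AU-rich elements and speeds the decay of the mRNAs that carry them, ran from 0.58 to 1.47 with a median of 0.94. Cebpd (1.18 ± 0.17) and Zfp36 (0.96 ± 0.15) were the members that passed of 20 measured immediate early and mRNA decay genes. That share was 10%, against 0.403% of all features as higher, and the list had a median of -0.03. Without arrays 3, 5 and 6 together both calls were lost, with adjusted p-values of 0.0649 for Cebpd and 0.0909 for Zfp36 in limma. Hyi, a hydroxypyruvate isomerase gene, ran from 0.81 to 0.99 over the Cy5 arrays and from 1.20 to 1.49 over the Cy3 arrays, so that the arrangements did not overlap. App, the gene of the amyloid precursor protein, showed the reverse order, from 1.10 to 1.25 over the Cy5 arrays and from 0.55 to 0.64 over the Cy3 arrays. Their fitted values were 1.11 ± 0.10 for Hyi and 0.87 ± 0.11 for App.

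Among the higher genes were also some of the matrix and the cell surface. Sparc, a secreted protein that binds collagen, ran from 0.31 to 1.03 with a median of 0.63, and all 4 Cy3 arrays lay above the 4 Cy5 arrays. Agrn, a heparan sulfate proteoglycan of basement membranes, ran from 0.53 to 1.63, with its highest values on arrays 3 and 6. Sparc (0.68 ± 0.11) and Agrn (0.90 ± 0.14) were the 2 of 29 measured extracellular matrix and integrin genes that passed, both higher (6.9%, against 0.403% of all features). The list median was -0.02, and 55.2% of its members lay below 0. The collagen gene Col1a1 had 0.16 ± 0.15 and did not pass, and its 2 probes had 0.34 ± 0.14 and -0.02 ± 0.30. None of the 13 measured fibroblast markers passed, and their median was 0.05. Gpnmb, a transmembrane glycoprotein (0.89 ± 0.12), Lhfpl2, a tetraspan membrane protein (0.99 ± 0.12), Rin2, an exchange factor for Rab5 (0.82 ± 0.11), the kinase gene Slk (0.84 ± 0.18) and the ferroxidase gene Cp, ceruloplasmin (0.83 ± 0.12), were higher as well. With probes of fewer values admitted, Rin2 had 0.60 and did not pass. The call of Slk was lost without array 2, 4, 5, 6 or 8, with adjusted p-values of at most 0.0898 in limma.

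Tmem86a had the greatest fitted value of the genes with a symbol, 2.60 ± 0.38 (n = 7), with wide spread between arrays. It ran from 0.57 to 1.5 over 3 Cy5 arrays and from 2.25 to 5.64 over 4 Cy3 arrays. The ranges did not overlap, and the mean was 0.99 in the first and 4.06 in the second. All 7 values lay above 0, so the sign was shared and the size was not.

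**Figure D2:**
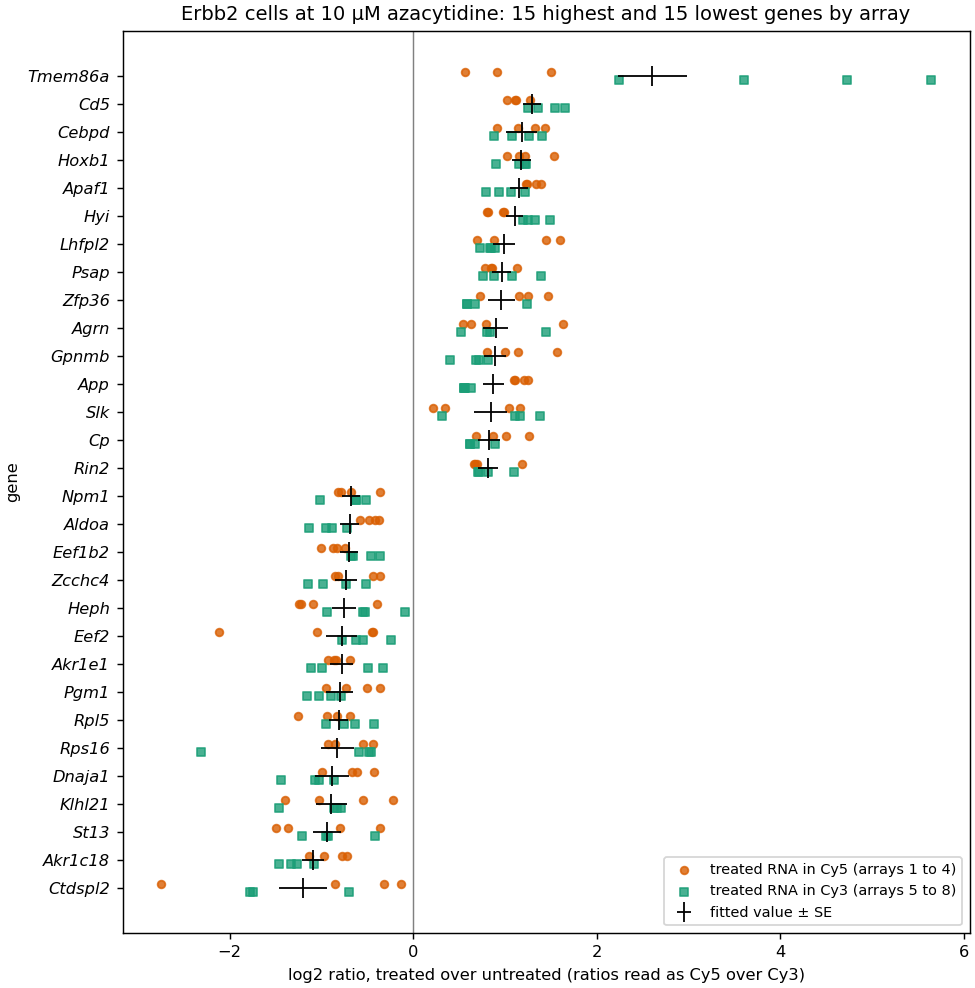
Log2 ratio of treated over untreated cells on each array (horizontal axis) for the 15 highest and the 15 lowest genes among those that passed with a single sign on every array (vertical axis). Circles are arrays with the treated RNA in Cy5, squares arrays with it in Cy3, and the black bar is the fitted value ± SE. Tmem86a spreads from 0.57 to 5.64 with its squares above its circles, while Cd5, Hoxb1 and Apaf1 keep within 1 unit.

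Lysosomal genes encode the hydrolases and transporters of the compartment that breaks down lipids, proteins and sugars. Of 29 measured, 3 passed as higher (10.3%, against 0.403% of all features) and none as lower, and 79.3% lay above 0 against 49.4% of all features. The count was 2 without array 1, 2, 6, 7 or 8, and 2 without arrays 3, 5 and 6 together. In the fit on the 8 arrays alone it was 1, Psap. The median was 0.19. Psap, the precursor of the saposins that present lipids to lysosomal hydrolases, ran from 0.78 to 1.13 over the Cy5 arrays and from 0.76 to 1.40 over the Cy3 arrays. Its fitted value was 0.97 ± 0.10 (n = 8), with an adjusted p of 0.000181 in limma. Grn, the precursor of the granulins, lay between 0.58 and 0.82 on 7 arrays and at 0.21 on array 6, with a fitted value of 0.66 ± 0.10. Npc2, which hands cholesterol to the lysosomal membrane, ran from 0.13 to 0.67 with a fitted value of 0.46 ± 0.09. It had an adjusted p of 0.0252 in limma, and the call was lost without array 1, 2, 6, 7 or 8. The cathepsin gene Ctsb (0.65 ± 0.16, adjusted p of 0.0614 in limma), the sialidase gene Neu1 (1.11 ± 0.54, n = 7) and the ceramidase gene Asah1 (0.49 ± 0.25) did not pass. The median of the list was above 0 on each of the 8 arrays, from 0.14 on array 1 to 0.53 on array 6, one of the arrays of widest spread.

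Of the 28 gene lists described, the cytosolic ribosomal proteins held the most genes that passed. Ribosomal proteins are the building blocks of the ribosome, and the mRNAs of most of them begin with a cytidine within a run of pyrimidines, through which their translation is controlled. Of 55 measured cytosolic ribosomal protein genes, 18 passed as lower (32.7%, against 0.862% of all features) and none as higher. The median was -0.39, or 0.01 when no array was turned, and 87.3% of the members lay below 0 against 50.6% of all features. The lower genes came from both subunits. They were Rpl5, Rpl8, Rpl9, Rpl13a, Rpl19, Rpl30, Rpl31 and Rpl39 of the large subunit, and Rps3a1, Rps4x, Rps7, Rps10, Rps14, Rps16, Rps27, Rps28, Rps29 and Rpsa of the small one. The call of Rps28 was lost whichever of the 8 arrays was left out. Those of Rpl8 and Rpl39 were lost whichever array other than array 3 was left out. None of the 3 probes of Rpl8 passed on its own, with adjusted p-values from 0.0652 to 0.163 in limma.

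How closely the arrays repeated a value differed between the ribosomal genes that passed. Rps14 ran from -0.76 to -0.45 with a median of -0.65, and Rps7 from -0.77 to -0.39 with a median of -0.68. No array of either gene came near 0, and the dye arrangements overlapped. Their fitted values were -0.64 ± 0.09 and -0.62 ± 0.09 (n = 8), with adjusted p-values of 0.00233 and 0.0027 in limma. With probes of fewer values admitted, Rps14 had -0.53 with an adjusted p of 0.290 in limma, and 8 ribosomal genes passed in place of 18. Wider ranges were found for Rpl30, from -1.19 to -0.13, and for Rpl9, from -0.90 to -0.03. Rpl5, which outside the ribosome also restrains Mdm2, the ligase that degrades p53, ran from -1.26 to -0.42 with a fitted value of -0.81 ± 0.10. Rps16 lay between -0.92 and -0.44 on 7 arrays and at -2.31 on array 6, with a fitted value of -0.83 ± 0.18. Leaving out array 6 gave -0.60 with an adjusted p of 0.0112 in limma, and the call was lost without array 1, 2, 3, 4, 7 or 8. Members above 0 were few, and Rplp1, of the stalk, had the greatest value, 0.93 ± 0.27 (n = 6), which did not pass.

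The median over the measured ribosomal genes was below 0 on all 8 arrays, from -0.46 on array 5 to -0.25 on array 3. The number of members that passed was less steady than the median. Without array 3 it was 16, without array 6 it was 12, without array 7 it was 11, without array 5 it was 9 and without array 1 it was 8, with 1 further member higher. Without array 2, 4 or 8 it was 7, and without arrays 3, 5 and 6 together it was 4. In the fit on the 8 arrays alone it was 0, at the same median of -0.39. Whether a probe also reads a near-identical copy of its gene was not tested, so single ribosomal values are uncertain. Nucleophosmin, Npm1, a nucleolar chaperone of ribosome assembly, was lower too, from -1.01 to -0.37 with a fitted value of -0.68 ± 0.10.

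The start sites of 3 lower ribosomal genes are printed as examples of a pyrimidine run, chosen because they hold CTTTC on the strand of the gene. Shown are the 30 bases from 10 before to 20 after the RefSeq start in GRCm38.p6, 5′ to 3′, with CTTTC in capitals. Most lower genes lacked it. On the strand of the gene it was found in 4 of the 45 windows of lower genes, and in 1 of the 32 that were not ribosomal. The windows of the lower genes Rpl9, Rpl19, Rpl31 and Rpl39 held no CTTTC on either strand. They are Rpl13a at chr7:45128726-45128755, Rps10 at chr17:27635225-27635254 and Rps27 at chr3:90213629-90213658, all on the minus strand.
Rpl13a: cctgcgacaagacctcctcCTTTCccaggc
Rps10: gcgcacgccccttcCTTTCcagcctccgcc
Rps27: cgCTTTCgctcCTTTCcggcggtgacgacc
The letters CTTTC, searched on both strands of that 30-base window, were found for 28.3% of the 46 ribosomal genes with a window, 4.17% of the 24 lysosomal genes and 5.68% of the 6321 genes tested. On the strand of the gene alone the share was 23.9% of the ribosomal genes and 2.78% of all genes tested. A match describes the sequence and is no measure of translation or of drug response.

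Translation factors followed with smaller values. Of 40 measured, 3 passed as lower (7.5%, against 0.862% of all features), and the median was -0.24, or 0.00 with no array turned. Eef1b2, an exchange factor for the elongation factor that delivers tRNA, ran from -1.0 to -0.74 over the Cy5 arrays and from -0.68 to -0.36 over the Cy3 arrays, with a fitted value of -0.70 ± 0.10. Both sets lay below 0 and did not overlap. Eef2, the translocase of the ribosome, lay between -1.04 and -0.25 on 7 arrays and at -2.12 on array 3, with a fitted value of -0.78 ± 0.17, or -0.58 without array 3. Its 4 probes had -0.49, -0.61, -0.62 and -1.68, the last with an SE of 0.81. Tpt1, whose mRNA is known for the same kind of pyrimidine start, had -0.55 ± 0.12, and its sign turned on array 1 (0.05). The RefSeq window of Tpt1 held no CTTTC on either strand, so the sequence used here does not show that start. The call of Eef2 was lost without array 1, 2, 4, 6, 7 or 8, and that of Tpt1 whichever array other than array 1 was left out.

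In glycolysis and glycogen metabolism, 4 of 19 measured enzyme genes passed as lower (21.1%, against 0.862% of all features) and none as higher. The count was 0 without arrays 3, 5 and 6 and 0 in the fit on the 8 arrays alone. Aldoa, aldolase, ran from -0.58 to -0.38 over the Cy5 arrays and from -1.13 to -0.72 over the Cy3 arrays, with a fitted value of -0.69 ± 0.10. Its 3 probes lay between -0.86 and -0.56 and each passed on its own. Pgm1, phosphoglucomutase, ran from -1.15 to -0.37 with a fitted value of -0.80 ± 0.15. Pkm, pyruvate kinase, had -0.69 ± 0.13 and lay above 0 on array 4 (0.12). Gapdh had -0.53 ± 0.10, its 2 probes had -0.51 and -0.55, and its call was lost without array 1, 4 or 7. With probes of fewer values admitted, Gapdh had -0.28 and did not pass. The list had a median of -0.19, or 0.03 with no array turned, and its array medians were far from even. Leaving out array 3 or array 5 brought the list median to -0.06, and it was -0.43 without array 1. They lay at -0.74, -0.68 and -0.62 on arrays 5, 3 and 7 and between -0.33 and -0.04 on the others.

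**Figure D3:**
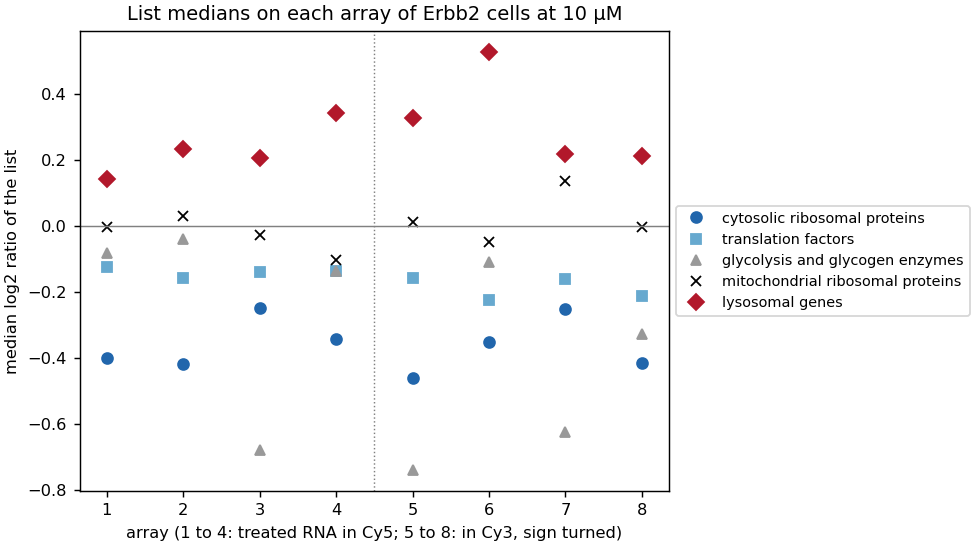
Median log2 ratio of the measured members of 5 gene lists (vertical axis) on each of the 8 arrays (horizontal axis), with the dye arrangements separated by the dotted line. Lysosomal genes (red) lie above 0 on every array and cytosolic ribosomal proteins (dark blue) below 0 on every array, with arrays 5 to 8 turned, and without turning the overall ribosomal median is 0.01. Mitochondrial ribosomal proteins (crosses) lie near 0.

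Other lower genes had separate functions. Akr1c18, which inactivates progesterone, ran from -1.13 to -0.72 over the Cy5 arrays and from -1.46 to -1.08 over the Cy3 arrays, and the arrangements met at their edges. Its fitted value was -1.09 ± 0.12 (n = 8), with an adjusted p of 0.00036 in limma. Its relative Akr1e1 ran from -1.11 to -0.32 with a fitted value of -0.78 ± 0.12, or -0.20 without passing when probes of fewer values were admitted. Akr1c21 had -0.45 ± 0.13 (n = 7) and Akr1c19 had 1.02 ± 0.57 (n = 6) without passing. In the list of 31 antioxidant, metal and aldo-keto reductase genes, Akr1c18 and Akr1e1 passed as lower (6.45%, against 0.862% of all features). Cp passed as higher (3.23%, against 0.403%), and the median was -0.04. The Hsp70 cofactor genes St13 (-0.94 ± 0.16) and Dnaja1 (-0.89 ± 0.19) were the 2 of 30 measured chaperone genes that passed (6.67%, against 0.862% of all features as lower). St13 did not pass when probes of fewer values were admitted. The call of Dnaja1 was lost whichever array other than array 3 was left out. The cullin adaptor gene Klhl21 (-0.89 ± 0.17), the ferroxidase gene Heph (-0.75 ± 0.13), the zinc finger gene Zcchc4 (-0.73 ± 0.12) and Ctdspl2, a phosphatase-like gene (-1.20 ± 0.26, n = 7), completed the lowest 15. Ctdspl2 ran from -2.75 on array 3 to -0.14 on array 4, and its call was lost without array 1, 5, 7 or 8.

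Of 43 measured cell cycle and replication genes, the replication clamp gene Pcna passed, as lower (2.33%, against 0.862% of all features). A single call is no result about the list. Pcna ran from -0.60 to -0.35 over the 8 arrays, with a fitted value of -0.48 ± 0.09. Its 2 probes had -0.68 ± 0.10 and -0.28 ± 0.11, the second did not pass on its own, and the call was lost without array 1 or 4. Of 29 stress response genes, Atf4, the transcription factor of the integrated stress response, passed as lower (-0.41 ± 0.09). This was 3.45% of the list, against 0.862% of all features, and the call was lost whichever of the 8 arrays was left out. Atf4 too was a single call and no result about its list. Actb, the cytoplasmic actin gene often used for scaling, had -0.38 ± 0.12 with an adjusted p of 0.199 in limma and did not pass.

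In 14 of the 28 lists no member passed, with list medians from -0.17 to 0.19. Over all features 1.26% passed, so lists as small as these would often hold no call, and its absence is no result about them. These lists included the groups most often linked to loss of DNA methylation. None of the 8 measured genes of the DNA methylation machinery passed, 12.5% of them lay above 0, and the maintenance methyltransferase gene Dnmt1 ran from -0.01 to 0.79 with a fitted value of 0.28 ± 0.10. Its Cy3 arrays (0.18 to 0.79) all lay above its Cy5 arrays (-0.01 to 0.15). None of the 12 imprinted genes passed, and the growth factor gene Igf2 had -0.06 ± 0.19. None of 17 germline and testis genes passed (median 0.10), and none of 20 skeletal muscle genes (median -0.09), a fate that azacytidine is known to open in some mouse fibroblast lines. None of 19 interferon response and MHC genes passed (median 0.08), and the MHC light chain gene B2m had 0.33 ± 0.17. None of 28 genes of ErbB, MAPK and PI3K signalling passed (median -0.09). An absence of calls at this precision does not show that these genes did not change.

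Among mitochondrial genes no call was made, where 1.26% of all features passed. None of 53 mitochondrial ribosomal protein genes passed, with a median of 0.00 and 50.9% above 0. None of 56 oxidative phosphorylation genes passed, while their median was 0.16 and 69.6% lay above 0. Among them the complex I subunit gene Ndufc2 had 0.50 ± 0.13, with an adjusted p of 0.0916 in limma. Proteasome subunits (27 genes, median -0.02) and actin and microtubule genes (32 genes, median -0.00) had no call either, nor had cholesterol synthesis genes (9 genes, median -0.08) or epithelial genes (9 genes, median 0.00). Of 11 adipocyte and chondrocyte genes Cebpd passed (9.09%, against 0.403% of all features as higher), a single call and no result about the list.

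**Figure D4:**
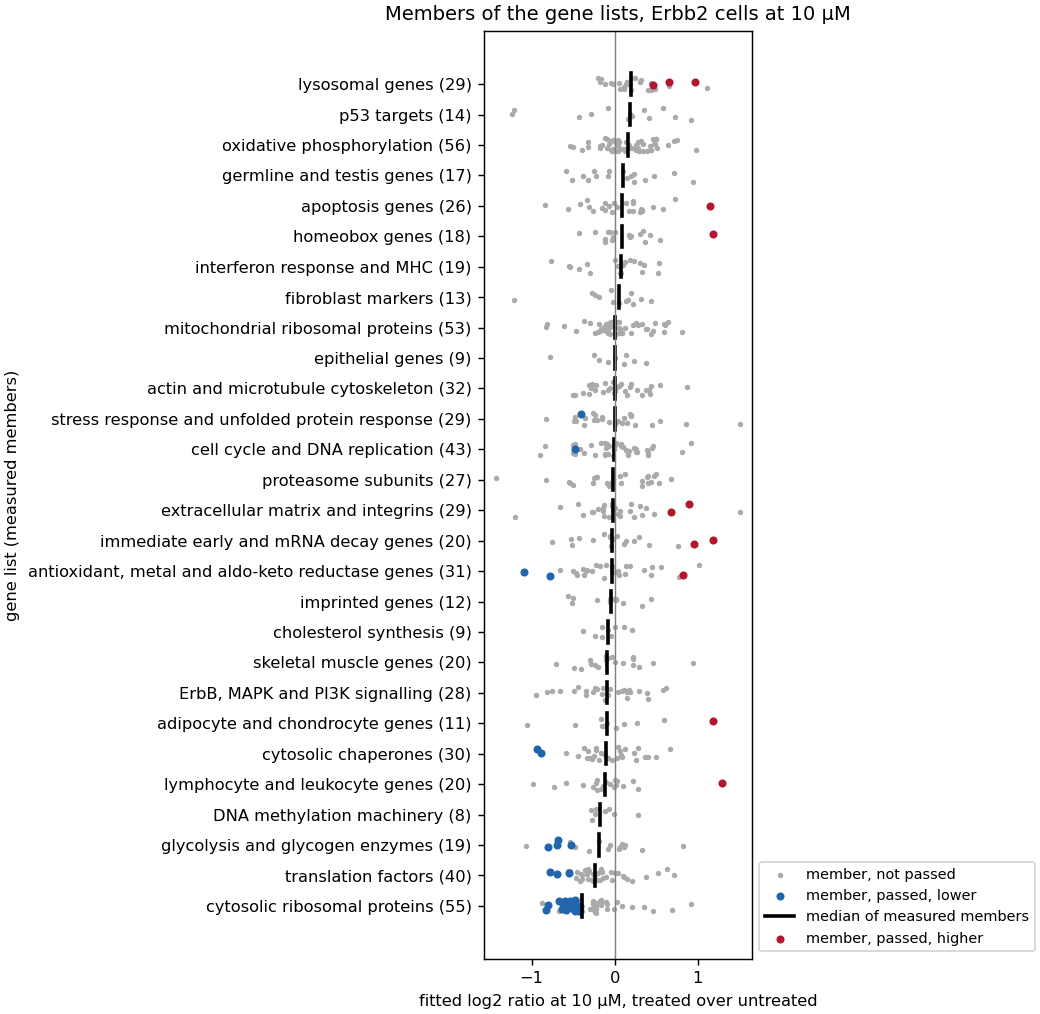
Fitted log2 ratio at 10 µM (horizontal axis) of every measured member of 28 gene lists (vertical axis, number of members in parentheses), ordered by the list median (black bar). Red points passed as higher, blue points passed as lower and grey points did not pass, with arrays 5 to 8 turned for their dye. The 18 blue ribosomal genes at the bottom and the 3 red lysosomal genes at the top mark the ends, and with no array turned the ribosomal median is 0.01.

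The 5 µM arrays give the values at the lower dose, set against the same untreated transfected cells. Of the 12420 features, 26 passed at 5 µM (0.209%), 22 higher (0.177%) and 4 lower (0.0322%). Cd5 had 1.35 ± 0.14 at 5 µM beside 1.29 ± 0.10 at 10 µM, Hoxb1 had 0.87 ± 0.15 beside 1.18 ± 0.11, and Apaf1 had 0.84 ± 0.14 beside 1.15 ± 0.10. Cebpd had 0.27 ± 0.29 (n = 3) at 5 µM, Gpnmb 0.21 ± 0.17, Grn 0.16 ± 0.15 and App -0.08 ± 0.16. The ribosomal median was -0.30 and the lysosomal median 0.16. No feature passed the test of the difference between the doses (0 of 12420, 0%), while 538 had a p under 0.05 before adjustment. The smallest adjusted p was 0.682 in limma. The difference for App was 0.95 ± 0.20, with an adjusted p of 0.682. App ran from 0.55 to 1.25 over the 8 arrays at 10 µM. The other genes with the smallest p for the dose were Ephb1, Atat1, Mrpl30 and Znf41-ps, none of which passed at 10 µM. The 4 arrays at 5 µM give wider errors, and the test does not show that the doses acted alike.

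The untransfected line gives the comparison that the design names as its control, and it carries a doubt of its own. Both channels of each of its 4 arrays have the same dye label, so which channel held the treated RNA is uncertain, and the first channel's label was used. In these cells 339 features passed (2.73%), 74 higher (0.596%) and 265 lower (2.13%). On that reading 101 features differed between the lines in limma (0.813% of those tested), 78 with the greater value in Erbb2 cells (0.628%) and 23 with the lesser (0.185%). Among the features that passed in Erbb2 cells at 10 µM, 22 of the 50 higher ones (44%) and 3 of the 107 lower ones (2.80%) differed. These shares are not independent of the choice of the features, which used the same Erbb2 values. Of the 50 higher features 26 had the same sign in untransfected cells, and of the 107 lower ones 99 did, against 24 and 8 with the other dye label.

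By gene, the lines parted for Apaf1, Hyi, Lhfpl2, Psap and Hoxb1. Apaf1 had 1.15 ± 0.10 in Erbb2 cells and -0.80 ± 0.14 in untransfected cells, a difference of 1.96 ± 0.17 with an adjusted p of 4.3e-05 in limma. Lhfpl2 had 0.99 ± 0.12 and -1.09 ± 0.17, and Psap had 0.97 ± 0.10 and -0.76 ± 0.15. The lysosomal genes Grn (0.66 ± 0.10 and -0.86 ± 0.15) and Npc2 (0.46 ± 0.09 and -0.55 ± 0.13) differed as well, and the medians of the lysosomal list were 0.19 and -0.40. Cd5 had 0.12 ± 0.14 in untransfected cells, and its difference of 1.17 ± 0.17 passed with an adjusted p of 0.00301 in limma. The difference for Tmem86a, 2.62 ± 0.62, had an adjusted p of 0.0876 and did not pass. Slc15a5 and Scpep1 also differed, through values of 2.47 ± 0.17 and -1.87 ± 0.15 in untransfected cells beside 0.25 ± 0.12 and -0.02 ± 0.11 in Erbb2 cells.

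On that reading the median of the ribosomal genes was -0.60 in untransfected cells beside -0.39 in Erbb2 cells, and no ribosomal gene differed between the lines. Rpl5 had -1.10 ± 0.15 beside -0.81 ± 0.10, Eef1b2 -1.23 ± 0.14 beside -0.70 ± 0.10, and Aldoa -1.09 ± 0.14 beside -0.69 ± 0.10. None of these 3 differences passed.

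If the treated RNA of the untransfected cells was in the other dye, the count that differs changes mostly among the lower features. Then 351 features differed between the lines, among them 20 of the 50 higher features (40%) and 90 of the 107 lower ones (84.1%). Hoxb1, Apaf1, Hyi, Psap, App, Grn and Npc2 no longer differed, and the difference for Lhfpl2 became -0.10 from 2.08. Cd5 still differed, by 1.41 with an adjusted p of 0.000162 in limma, since its value in untransfected cells was close to 0 under either label. Rpl5 (-1.91), Eef1b2 (-1.93) and Aldoa (-1.78) then differed. The labels do not settle which reading holds, and no result for Erbb2 cells alone depends on it.

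**Figure D5:**
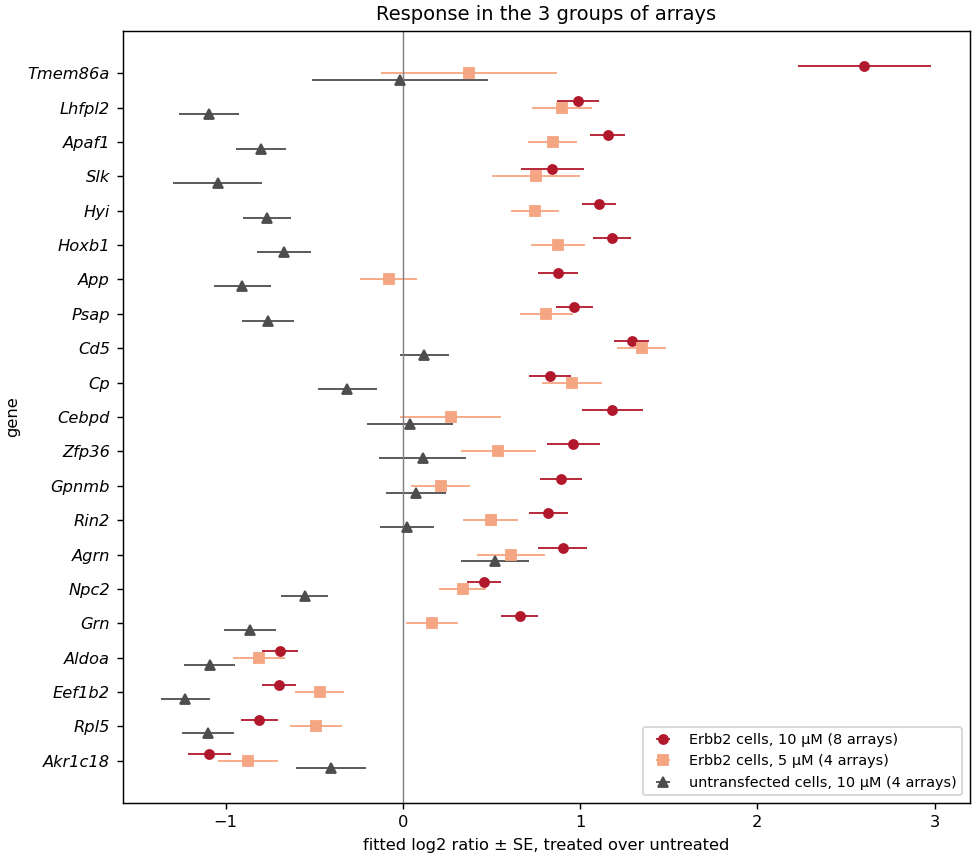
Fitted log2 ratio ± SE (horizontal axis) of the 15 highest genes and of Npc2, Grn and 4 lower genes (vertical axis) in Erbb2 cells at 10 µM (circles, 8 arrays), Erbb2 cells at 5 µM (squares, 4 arrays) and untransfected cells at 10 µM (triangles, 4 arrays, first-channel dye label). Apaf1, Lhfpl2, Psap and Grn have triangles below 0, Cd5 has its triangle at 0.12, and the lower genes have all 3 markers below 0. With the other dye label the triangles change sign.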

How the data were processed

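RNA of treated and untreated cells of a line was compared on 16 2-dye cDNA arrays. The values deposited by the authors are log2 ratios centred near 0, whose direction and log base are unstated. Base 2 was inferred, since repeated values lie log2 of 2 and of 1.5 (0.585) apart. On every array 1 repeated value equalled a ratio of 100000 shifted by the constant of that array. These 738 cells of the 8 arrays were read as spots without signal in the denominator and set to missing, beside 22415 empty cells. With the constant removed, 5.24 to 7.52% of the ratios of an array equalled a ratio of whole numbers up to 8 within 0.00105, against 1.43 to 1.94% after a shift of 0.0137. No source used here gives the image analysis, background correction or normalization. No value column was left unused (0).

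Probes needed a value on 6 of the 8 arrays and on 3 of 4 in the other groups, with both dye arrangements present where a group had both, which kept 14813 of 20355. Those with 1 symbol were averaged by gene, joining 1879 genes from 2 or more probes. The platform annotation gave 1 symbol for 14030 probes (13994 matched to RefSeq by gene ID, 0 changed), several for 5 and none for 6320. limma 3.58.1 in R 4.3.3, with the package data.table (version 1.17.8), fitted all 16 arrays with a coefficient per group and a shared dye term, then eBayes, two-sided, with Benjamini-Hochberg adjustment over 12420 features at 0.05. The dye term passed for 0 features in limma. Before adjustment it had a p under 0.05 for 1000, and its smallest adjusted p was 0.0855. The fit was tested on simulated data, and no other tool was run.

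Replicate numbers of the titles did not pair the samples. The label protocol speaks of organs and a pool of animals and was not used. The arrays and gene lists were chosen with earlier results of these data known. Named genes are the 15 highest and 15 lowest that passed with a single sign on every array, every list member that passed, the 5 with the smallest p in the dose and line contrasts, and Dnmt1, Cdkn1a, Erbb2, Igf2, Myod1, B2m, Col1a1 and Actb. Other list members are examples chosen after their values were seen. Alternatives changed the direction, the source of the spread, the dye term, placeholders, centring, scaling, weights, filters, probe averaging, pairing and the arrays used, and 1, which set ratios of small whole numbers to missing, was added after seeing the data. Promoter windows came from RefSeq (GRCm38.p6), and where a gene had several the first listed was used.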

Additional observations from a re-analysis of the deposited data

Results flagged for a closer look

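Among the 66 named genes, 5 had 1 array that stood apart from the other arrays of Erbb2 cells at 10 µM by Dixon's criterion, which chance meets in about 1 of 20 sets. Rps16 had -2.31 on array 6, Eef2 had -2.12 on array 3, Grn had 0.21 on array 6, Rpl8 had -1.03 on array 5 and Scpep1 had 0.43 on array 8. Arrays 3, 5 and 6 are also the arrays with the widest spread of ratios. The share of ratios equal to a ratio of small whole numbers stood apart on array 4, at 7.52%.

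For 13 named genes the response to 10 µM differed between Erbb2 and untransfected cells by the limma contrast, with the doubt about the dye labels of the untransfected arrays given above. The differences, Erbb2 minus untransfected, were 2.08 for Lhfpl2, 1.96 for Apaf1, 1.89 for Slk, 1.87 for Hyi, 1.85 for Hoxb1, 1.85 for Scpep1, 1.78 for App, 1.73 for Psap, 1.52 for Grn, 1.17 for Cd5, 1.14 for Cp and 1.01 for Npc2, and -2.22 for Slc15a5. Their adjusted p-values ran from 4.3e-05 for Apaf1 and Hyi to 0.0157 for Cp. With the other dye label Cd5, Slc15a5 and Scpep1 of these 13 differed, and the last 2 with the opposite sign.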

How the results depend on the processing

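The count of 157 features became 103 to 142 when 1 of the 8 arrays was left out, with 35 to 45 higher and 64 to 102 lower. The count was 103 without array 1 and without array 4, and 64 were lower without array 8. The difference between the lines then held between 60 and 105 features, arrays of the other groups included, with 67, 63 and 60 without untransfected array 1, 2 or 4, and the difference between the doses 0 to 0. Without arrays 3, 5 and 6, 57 passed (27 higher, 30 lower). The fit on the 8 arrays alone gave 22 (15 higher, 7 lower), and either dye arrangement alone gave 0, 0 higher and 0 lower. Requiring a value on every array gave 247 (174 lower) and 189 between the lines, and requiring 50% of arrays gave 70 lower. With the other dye on the untransfected arrays 351 differed between the lines, and the differences became -0.10 for Lhfpl2, 2.72 for Slc15a5 and -1.90 for Scpep1. The replicate block gave 156 (50 higher, 106 lower), 106 between the lines and a consensus correlation of 0.0695, and changed no call of the 54 named genes that passed. Deviations of same-numbered arrays from their group means, with any dye effect left in, had a mean correlation of 0.00505 over 12 pairs, against -0.000903 for other numbers. Counts stayed within 1.5 times under no dye term, placeholders kept, centring, scaling, weights and single probes, and with ratios of small whole numbers set to missing (186), an alternative chosen after seeing the data. Of the 54 named genes that passed, 33 passed without any 1 of the 8 arrays, and none changed sign in those fits.

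With no array turned for its dye, 2 features passed (1 higher, 1 lower) and 0 differed between the lines. The list medians became 0.0069 for ribosomal proteins, 0.0045 for translation factors and 0.034 for glycolysis. Of the higher genes, Tmem86a became -1.71, Cd5 -0.16, Hyi -0.21, Psap -0.062, Agrn -0.0021, Slk -0.15, Rin2 -0.016, Npc2 -0.14 and Sparc -0.22. Of the lower genes, Ctdspl2 became 0.10, Akr1c18 0.19, Klhl21 0.091, Dnaja1 0.21, Rps16 0.14, Pgm1 0.16, Zcchc4 0.11, Aldoa 0.23, Npm1 0.016, Pkm 0.21, Tpt1 0.20, Rpl13a 0.047, Rpl19 0.039, Rpl39 0.20, Rpl8 0.053, Rpl9 0.12, Rps14 0.043, Rps28 0.056, Rps29 0.14, Rps3a1 0.067 and Rps4x 0.084. The differences between the lines became -0.21 for Hyi, 0.23 for Slc15a5 and -0.14 for Scpep1. These follow from the construction, since values alike after turning cancel without it. Signal over background is unknown, the number of arrays limits the precision, and untreated RNA enters each ratio without arrays of its own.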

Other observations

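Beside the genes in lists, 39 of the 81 genes with a symbol that passed stood in none of the 28 lists. The following were chosen after their values were seen. On the higher side, Nceh1, which frees cholesterol from its esters, had 0.69 ± 0.15, S100a11, a calcium-binding protein gene, had 0.65 ± 0.10, and Mmadhc, which routes vitamin B12 inside cells, had 0.72 ± 0.15. Nmral1, a sensor of NADPH, had 1.14 ± 0.23 but lay below 0 on 1 array (-0.37). On the lower side, the RNA-binding protein genes Pcbp2 and Fxr1 had -0.69 ± 0.15 and -0.52 ± 0.11, beside the translation repressor gene Gigyf1 (-0.55 ± 0.09) and the splicing factor gene Luc7l3 (-0.55 ± 0.11), of which Pcbp2 lay above 0 on arrays 2 and 3 and Fxr1 on array 3. Single genes among the rest of the lower side were the Fc receptor gene Fcgr2b (-0.55 ± 0.10), the integrin activator gene Fermt3 (-0.64 ± 0.11) and the Ras exchange factor gene Rasgrp1 (-0.50 ± 0.11).

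Of the 157 features, 76 were probes without a gene symbol, and these held the greatest values. On probe9740 the log2 ratio ran from 2.90 to 3.80 over the 8 arrays, with a fitted value of 3.29 ± 0.12, or 9.81-fold, and an adjusted p of 8.74e-10 in limma. It had 3.61 ± 0.17 at 5 µM and 4.34 ± 0.17 in untransfected cells. On probe7407 the ratio ran from 2.26 to 3.59 with a fitted value of 2.97 ± 0.15, beside 3.44 ± 0.21 at 5 µM and 3.42 ± 0.21 in untransfected cells. Both probes lay far above 0 in either dye arrangement of the 8 arrays, and the sign in untransfected cells rests on the first dye label. The unnamed probe17337 (1.32 ± 0.11) and probe12884 (1.14 ± 0.09) had values of -0.99 ± 0.15 and -0.86 ± 0.13 in untransfected cells, as read by the first dye label. On the lower side, probe20034 had -1.31 ± 0.18. What these probes read is not known here.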
